A study of Mus musculus with 14 samples.

Results

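The genes described here are 9 homeostatic chemokines and their receptors in the infarcted mouse heart. They are the ligands Cxcl12, Cxcl14, Cxcl16, Cx3cl1 and Ccl11 and the receptors Cxcr4, Ackr3 (older symbol Cxcr7), Cxcr6 and Cx3cr1. They were chosen by gene symbol and found through the RefSeq accession that the array files give for each probe, which gave 12 of the 55482 probes that are not controls. All 12 were bright enough to be tested, and the 9 genes are 9 of 14862 named genes tested. Cxcl12, Cxcr6 and Cx3cr1 had 2 probes each, called here the brighter and the dimmer probe by their mean level, and the brighter one stands for the gene in counts.

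RNA from the ventricle was hybridised to 14 1-colour Agilent SurePrint G3 mouse arrays, 1 sample per array. The tissue is described as the border zone, the muscle next to the infarct, although sham hearts had no ligation and so no infarct. All mice were male C57BL/6 operated at 8 weeks of age, with no transgene in the labels. Myocardial infarction (MI) was made by tying off the left anterior descending artery for good, and tissue was taken 14 days later (MI 14 days, 5 arrays) or 3 days later (MI 3 days, 5 arrays). Sham mice had the same operation without ligation (4 arrays analysed here, of 5 sham mice in the design text), and the time at which their hearts were taken is not stated. Per the labels, mRNA was purified on poly-T beads but total RNA went into the labelling, so which of them was labelled is not settled. Levels are log2 intensities relative to the array's 75th percentile, so that a level of 1 means a signal at double that percentile. Because probes differ in how well they hybridise, a level is compared only between arrays for the same probe.

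Homeostatic chemokines are made in healthy tissue and keep leukocytes, progenitors and vessels in place, in contrast to inflammatory chemokines, which are induced by injury. Cxcl12 is made by stromal cells, cardiomyocytes and endothelium and signals through Cxcr4, while Ackr3 binds the same ligand, recruits arrestin and clears it from the surroundings. Cxcl16 and Cx3cl1 are made as transmembrane proteins that hold cells bearing Cxcr6 or Cx3cr1 and are released by proteases, Cxcl14 is a conserved chemokine of epithelia and stroma, and Ccl11 (eotaxin) attracts eosinophils through Ccr3.

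After 3 days the border zone held more Cxcr4, Cxcr6 and Cx3cr1 RNA and more of both transmembrane ligands, Cxcl16 and Cx3cl1, while Ackr3 was 2.37-fold lower than in sham hearts. After 14 days Cxcl16 and Cx3cl1 stood 1.97-fold and 2.42-fold above sham, and Cxcl14 and Ccl11 had fallen 1.81-fold and 3.60-fold below sham. Cxcr6 and Ackr3 no longer passed the test against sham. Of the 2 Cx3cr1 probes the brighter one did not pass and the dimmer one passed narrowly (limma adjusted p = 0.0576 and 0.0485). The 2 probes of Cxcl12 moved in opposite directions after MI. The receptor ratio Cxcr4 over Ackr3 was higher in MI hearts at both times than in sham hearts.

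Across the series, the 75th percentile of intensity was 188.6 to 443 per array, 54.7% to 66.1% of probes were above background on the 10 arrays with scanner output, and no probe was saturated there. MI 14 days replicate 3 stood apart from its group, with the lowest mean correlation with it (0.981), and it held the highest MI 14 days values of Cxcl16, Cxcr6, Cx3cl1 and Cx3cr1. Without it the changes at MI 14 days against sham were 0.87 for Cxcl16, 0.04 and 0.13 for the 2 Cxcr6 probes, 1.14 for Cx3cl1, and 0.77 and 0.87 for the 2 Cx3cr1 probes. The calls of Cxcl16 and Cx3cl1 held without it.

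The promoters of 4 members are shown because these genes carry the contrasts below: the receptors Ackr3 and Cxcr4, which moved apart, and the ligands Cxcl12 and Cx3cl1. Each line gives the 100 bases before the annotated start from RefSeq on build GRCm38.p6, on the gene's own strand, with the letters TATAAA in capitals.
Ackr3, chr1:90203880-90203979, plus strand: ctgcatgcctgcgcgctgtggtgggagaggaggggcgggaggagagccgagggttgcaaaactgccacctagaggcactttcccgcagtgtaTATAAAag
Cxcr4, chr1:128592300-128592399, minus strand: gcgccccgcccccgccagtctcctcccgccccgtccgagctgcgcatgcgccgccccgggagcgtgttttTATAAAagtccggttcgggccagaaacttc
Cxcl12, chr6:117168435-117168534, plus strand: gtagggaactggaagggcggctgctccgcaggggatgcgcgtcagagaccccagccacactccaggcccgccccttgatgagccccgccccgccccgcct
Cx3cl1, chr8:94772080-94772179, plus strand: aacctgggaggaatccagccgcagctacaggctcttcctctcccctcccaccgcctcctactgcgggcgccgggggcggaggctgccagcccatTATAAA

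RefSeq's promoter table held 7 of the 9 members, without Cxcl16 and Ccl11. In the 250 bases before the start, searched on both strands, TATAAA was found in Ackr3, Cxcr4 and Cx3cl1, and in 12.4% of all 32851 promoters in the table. Its first base lay 8 bases before the annotated start in Ackr3, 30 in Cxcr4 and 6 in Cx3cl1. The letters GGGCGG, the GC box, were in Ackr3, Cxcr4, Cxcl12 and Cx3cl1 and in 32.7% of all promoters. GCGTG, the core of the hypoxia response element, was in Ackr3, Cxcr4 and Cxcl14 (28.2% of all), and its variant ACGTG, which shares 4 letters with it, was in none of the 7 members (16.6% of all). TTCNNNGAA, the letters bound by STAT factors, was in Cxcl14 (7.02% of all), and GAGGAAG, an ETS-type motif, was in Cx3cl1 (10.6% of all). The NF-kB consensus was in none of the 7 members and in 3.9% of all promoters. No other motifs of the search share letters in this way, and the 3 members with TATAAA did not share a direction of change at MI 3 days.

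Among the 9 members, at MI 3 days against sham 5 rose, 2 fell and 2 did not pass the limma test, and 70.2% of all genes tested passed it in either direction (29.8% higher and 40.5% lower). At MI 14 days against sham 3 rose and 3 fell, and 40.1% of all genes passed (15.9% higher and 24.2% lower). Set against MI 3 days, MI 14 days had 1 member up and 6 down, and 60.5% of all genes passed (33.6% higher and 26.9% lower). In either direction, the 7 of 9 members called at MI 3 days and between the times are near these backgrounds and say little about the members. The 6 of 9 at MI 14 days stand beside 40.1%. Both counts against sham take Cxcl12 as a fall by its brighter probe, although its dimmer probe rose. With the mean of both probes Cxcl12 rose by 0.43 log2 at MI 3 days (limma adjusted p = 0.00107). At MI 14 days that mean changed by 0.01 and did not pass (limma adjusted p = 0.936). The split by direction and the 6 of 9 thus depend on the probe used. The median member change was 0.93 log2 at MI 3 days, 0.23 at MI 14 days and -0.52 between the times, beside medians of -0.15, -0.08 and 0.08 over all genes. Arrays of the groups compared did not overlap in 6, 6 and 4 of the 9 members, and in 63.2%, 35.2% and 46.1% of all genes. Both MI groups are set against the same 4 sham arrays, so those comparisons are not independent.

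**Figure D1:**
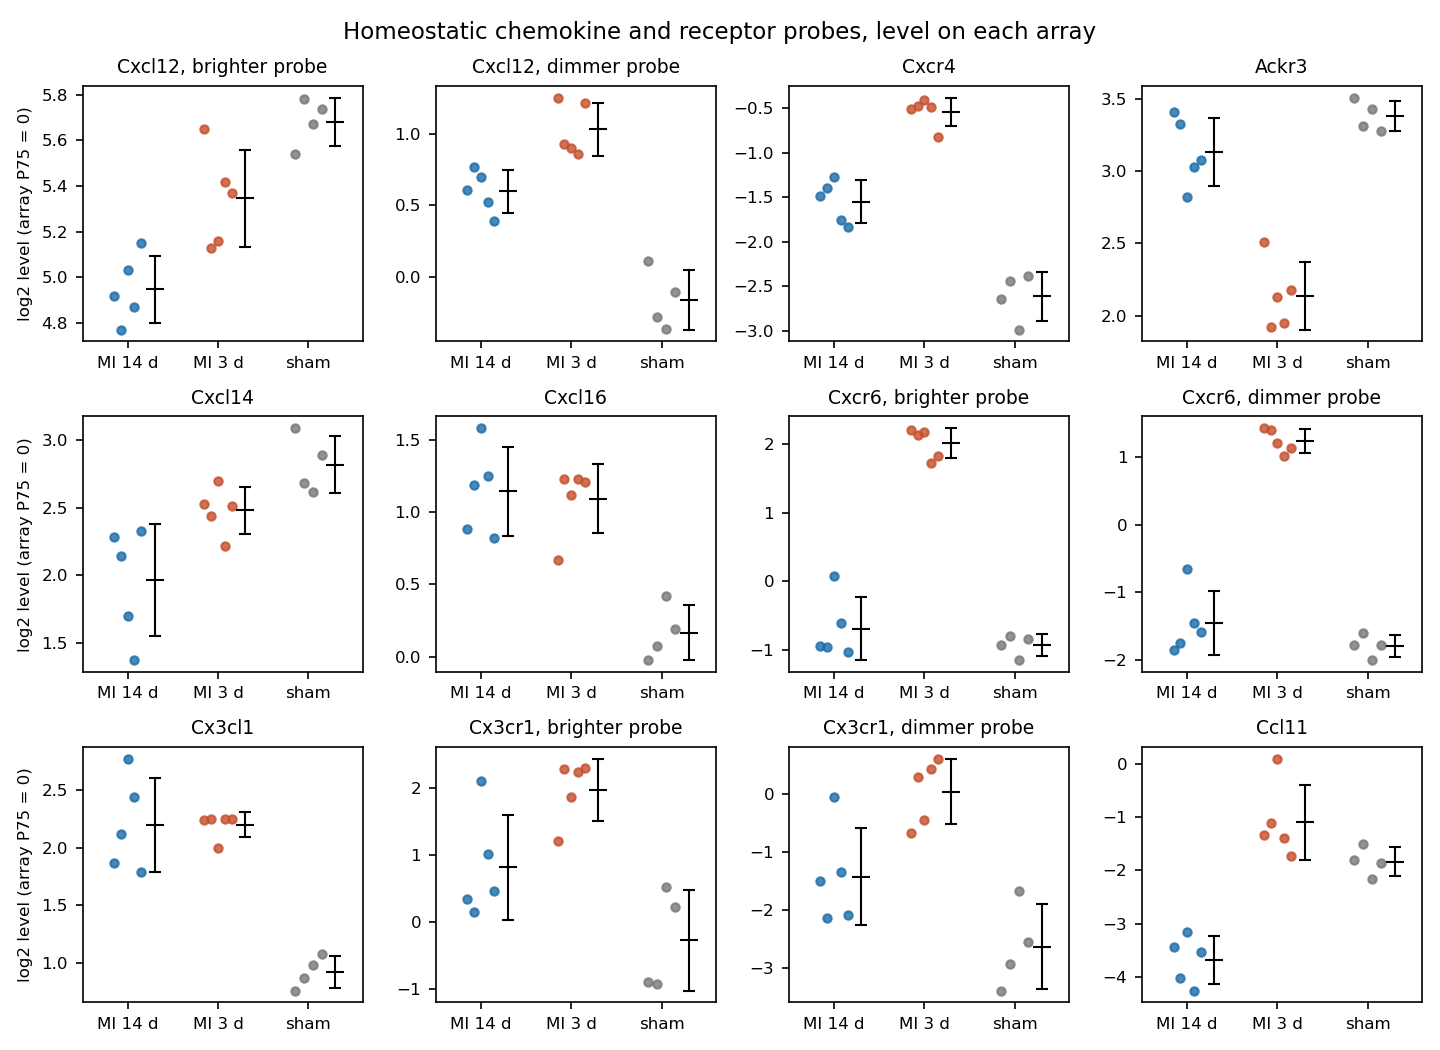
Log2 level (array's 75th percentile = 0) of each of the 12 member probes on every array at MI 14 days (5 arrays), MI 3 days (5 arrays) and in sham hearts (4 arrays), with 1 point per array and the mean ± SD beside the points. The brighter Cxcr6 probe stands at 1.72 to 2.21 at MI 3 days and at or below 0.07 on all arrays of the other groups. For the dimmer Cxcr6 probe these values are 1.01 to 1.43 and at or below -0.66. The 2 Cxcl12 probes have their sham arrays at opposite ends.

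Cxcl12, the ligand of Cxcr4 and Ackr3, is on the array with a brighter probe assigned to NM_001012477 and a dimmer one assigned to NM_021704, which are 2 transcripts of the gene. The brighter probe had log2 levels of 4.92, 4.77, 5.03, 4.87 and 5.15 at MI 14 days, 5.65, 5.13, 5.16, 5.42 and 5.37 at MI 3 days, and 5.54, 5.78, 5.67 and 5.74 in sham hearts. MI 14 days was the lowest group, with 1 array reaching the MI 3 days range and none reaching sham, and MI 3 days overlapped sham through replicate 1. The probe fell by 0.73 ± 0.11 log2 (SE) at MI 14 days against sham, 1.66-fold lower (adjusted p = 0.000468), and by 0.81 without scaling between arrays, where it did not pass (adjusted p = 0.106). It fell by 0.40 ± 0.11 at MI 14 days against MI 3 days (adjusted p = 0.00651). MI 3 days was 1.26-fold lower than sham, a difference of -0.33 ± 0.11 log2 (adjusted p = 0.0197). That last call was lost without sham replicate 2 (-0.30, adjusted p = 0.0557) and with quantile normalisation (-0.22, adjusted p = 0.114) and on the 10 arrays with scanner output alone (-0.29, adjusted p = 0.0646), and the difference was 0.08 without scaling between arrays.

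The dimmer Cxcl12 probe went the other way. Its levels were 0.61, 0.77, 0.70, 0.52 and 0.39 at MI 14 days, 1.25, 0.93, 0.90, 0.86 and 1.21 at MI 3 days, and 0.11, -0.28, -0.36 and -0.10 in sham hearts, and the 3 groups did not overlap. It rose 2.27-fold at MI 3 days (log2 change 1.19 ± 0.12, adjusted p = 1.4e-06) and 1.69-fold at MI 14 days (0.76 ± 0.12, adjusted p = 0.000567) against sham. Without scaling the MI 14 days change was 0.68 and did not pass (adjusted p = 0.229). It was 1.35-fold lower at MI 14 days than at MI 3 days (-0.43 ± 0.11, adjusted p = 0.00594). Both probes were well above background on every array with scanner output. So both were lower at MI 14 days than at MI 3 days, and they disagreed in sign against sham. With the mean of the 2 probes standing for the gene, the log2 change was 0.43 at MI 3 days (adjusted p = 0.00107) and 0.01 at MI 14 days against sham, so no single direction is given for Cxcl12 against sham.

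The log2 ratio of the brighter to the dimmer Cxcl12 probe, which does not depend on the scaling of arrays, was 4.0 to 4.77 at MI 14 days, 4.16 to 4.57 at MI 3 days and 5.43 to 6.06 in sham hearts. It changed by -1.52 at MI 3 days and by -1.49 at MI 14 days against sham, with no overlap of arrays (exact permutation p = 0.0159 each, two-sided). That is the smallest p that 5 arrays against 4 can give, and over the 9 such tests run the adjusted exact permutation p was 0.0716. It differed by 0.03 between MI 14 days and MI 3 days (exact permutation p = 0.841). This ratio was looked at after the values had been seen, and the files used here do not give where in the transcripts the probes lie. For Cxcr6 and Cx3cr1 the same ratio gave adjusted exact permutation p-values of 0.214 to 0.944.

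Cxcr4, the G-protein-coupled receptor through which Cxcl12 attracts leukocytes and progenitor cells, rose at both times. Its log2 levels were -1.49, -1.39, -1.27, -1.76 and -1.83 at MI 14 days, -0.51, -0.47, -0.41, -0.49 and -0.82 at MI 3 days, and -2.64, -2.44, -2.99 and -2.38 in sham hearts. The groups were fully separate, with MI 3 days on top, MI 14 days next and sham lowest. Against sham the increase was 4.21-fold at MI 3 days (2.07 ± 0.15 log2, adjusted p = 5.37e-08) and 2.09-fold at MI 14 days (1.07 ± 0.15, adjusted p = 0.000207). MI 14 days was 2.01-fold lower than MI 3 days (-1.01 ± 0.14, adjusted p = 4.07e-05).

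Ackr3, the scavenging receptor for Cxcl12, fell at MI 3 days. Its levels were 3.41, 3.33, 2.82, 3.03 and 3.08 at MI 14 days, 2.51, 1.92, 2.13, 1.95 and 2.18 at MI 3 days, and 3.51, 3.31, 3.43 and 3.28 in sham hearts. All MI 3 days arrays lay below all others, and MI 14 days overlapped sham. The change was -1.25 ± 0.14 log2 at MI 3 days against sham, 2.37-fold lower (adjusted p = 2.7e-06). It was 2.0-fold higher at MI 14 days than at MI 3 days (1.0 ± 0.13 log2, adjusted p = 2.26e-05), but without scaling between arrays this difference was 0.51 and did not pass (adjusted p = 0.172). From sham, MI 14 days differed by -0.25 ± 0.14 (adjusted p = 0.189).

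Ratios between members within an array do not depend on how arrays are scaled, and 7 pairs were compared in the 3 comparisons, with p-values adjusted over these 21 exact two-sided permutation tests. The smallest p such a test can give is 0.0159 for 5 arrays against 4 and 0.00794 for 5 against 5, and only the change of a ratio between groups has a meaning, not its size. Past an adjusted p of 0.05 were 5 of the 7 ratios at MI 3 days against sham, 4 at MI 14 days against sham and 5 between the times. The ratio of Cxcr4 to Ackr3 changed by 3.32 ± 0.23 log2 at MI 3 days and by 1.31 ± 0.23 at MI 14 days against sham. The change between MI 14 days and MI 3 days was -2.01 ± 0.20. Arrays did not overlap in any of the 3 comparisons (adjusted exact permutation p = 0.0303 each). So the 2 receptors of Cxcl12 differed most in their balance from sham at MI 3 days.

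The brighter Cxcl12 probe fell relative to Cxcr4 by 2.41 ± 0.18 log2 at MI 3 days and by 1.80 ± 0.19 at MI 14 days against sham (adjusted exact permutation p = 0.0303 each). Relative to Ackr3 the same probe was higher by 0.91 ± 0.13 at MI 3 days against sham (adjusted exact permutation p = 0.0303) and differed by -0.48 ± 0.18 at MI 14 days (adjusted exact permutation p = 0.0833). Between MI 14 days and MI 3 days it rose by 0.61 ± 0.20 relative to Cxcr4 (adjusted exact permutation p = 0.0417) and changed by -1.40 ± 0.17 relative to Ackr3 (adjusted exact permutation p = 0.0303). With the mean of both Cxcl12 probes the ratio to Ackr3 at MI 14 days against sham was 0.26, of the opposite sign. These pair calls rest on the smallest p-values available, and leaving out an array of a compared group mostly ended them, as such tests then reach only 0.0286 for 4 arrays against 4 and 0.0357 for 5 against 3 before adjustment.

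**Figure D2:**
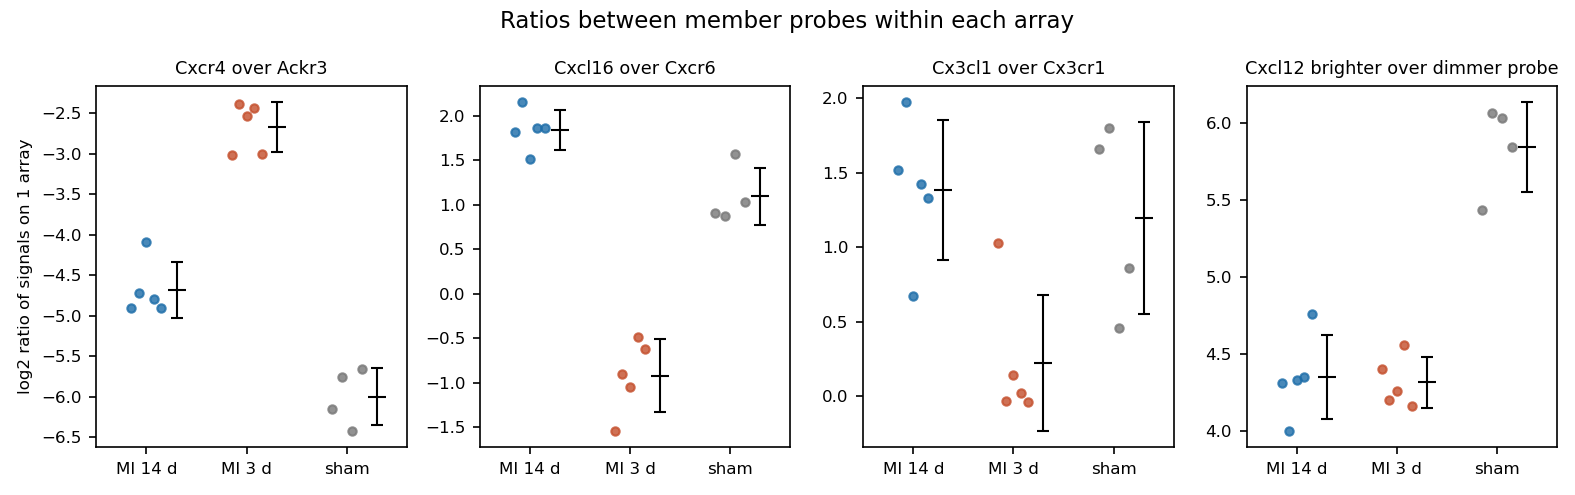
Log2 ratio of the signals of 2 probes on the same array for Cxcr4 over Ackr3, Cxcl16 over Cxcr6, Cx3cl1 over Cx3cr1 and the brighter over the dimmer Cxcl12 probe, at MI 14 days (5 arrays), MI 3 days (5 arrays) and in sham hearts (4 arrays), with 1 point per array and the mean ± SD. The Cxcr4 over Ackr3 ratio averages -4.68 at MI 14 days, -2.68 at MI 3 days and -6.00 in sham hearts, and the 3 groups do not overlap, while for the Cxcl12 probes both MI groups lie below all sham arrays.

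Cxcl14 fell below sham at 14 days. Its log2 levels were 2.28, 2.14, 1.70, 1.37 and 2.33 at MI 14 days, 2.53, 2.44, 2.70, 2.22 and 2.51 at MI 3 days, and 3.09, 2.68, 2.62 and 2.89 in sham hearts. The MI 14 days arrays lay below every sham array and spread more widely than the other groups, and MI 3 days stood between with overlap on both sides. The change was -0.86 ± 0.19 log2 at MI 14 days against sham, 1.81-fold lower (adjusted p = 0.00348; without scaling -0.93, adjusted p = 0.0635), and -0.34 ± 0.19 at MI 3 days against sham (adjusted p = 0.121). MI 14 days was 1.43-fold lower than MI 3 days (-0.52 ± 0.18, adjusted p = 0.0227). This call was lost without MI 3 days replicate 3 (-0.46, adjusted p = 0.056), without MI 14 days replicate 3 (-0.45, adjusted p = 0.053) and without MI 14 days replicate 4 (-0.37, adjusted p = 0.0528). The ratio of the brighter Cxcl12 probe to Cxcl14 differed by 0.01, 0.13 and 0.12 log2 at MI 3 days against sham, at MI 14 days against sham and between MI 14 days and MI 3 days (adjusted exact permutation p = 0.921, 0.719 and 0.719). With the mean of both Cxcl12 probes it differed by 0.77 at MI 3 days and 0.87 at MI 14 days against sham (adjusted exact permutation p = 0.0238 each). The small differences against sham thus rest on the brighter probe.

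Cxcl16, a transmembrane ligand that also takes up oxidised lipoprotein, rose at both times. Its log2 levels were 0.88, 1.19, 1.58, 1.25 and 0.82 at MI 14 days, 0.67, 1.23, 1.12, 1.23 and 1.21 at MI 3 days, and -0.02, 0.07, 0.42 and 0.19 in sham hearts. Every MI array was above every sham array. The increase was 1.90-fold at MI 3 days (0.93 ± 0.16 log2, adjusted p = 0.000207) and 1.97-fold at MI 14 days (0.98 ± 0.16, adjusted p = 0.000709) against sham. Without scaling the MI 14 days change was of similar size and just missed the threshold (0.90, adjusted p = 0.0535). MI 14 days differed from MI 3 days by 0.06 ± 0.15 (adjusted p = 0.778). RefSeq lists Zmynd15 as overlapping Cxcl16, and its probe changed by 0.93 ± 0.15, 0.96 ± 0.15 and 0.04 ± 0.14 in the same 3 comparisons. The Zmynd15 signal relative to that of Cxcl16 averaged -0.41 ± 0.12 log2 at MI 14 days, -0.39 ± 0.08 at MI 3 days and -0.40 ± 0.26 in sham hearts (SD, n = 5, 5 and 4). Whether the 2 probes read separate transcripts was not tested.

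Cxcr6, the receptor of Cxcl16 on T cell subsets, natural killer cells and innate lymphoid cells, rose at MI 3 days and was within the sham range on 3 of 5 arrays at MI 14 days by the brighter probe. That probe read -0.94, -0.96, 0.07, -0.61 and -1.04 at MI 14 days, 2.21, 2.13, 2.17, 1.72 and 1.83 at MI 3 days, and -0.93, -0.80, -1.15 and -0.84 in sham hearts. MI 3 days was apart from all other arrays, and replicate 3 was the highest at MI 14 days. Cxcr6 was 7.67-fold higher at MI 3 days than in sham hearts (2.94 ± 0.20 log2, adjusted p = 3.61e-08) and 6.52-fold lower at MI 14 days than at MI 3 days (-2.70 ± 0.19, adjusted p = 1.06e-07). From sham it differed by 0.23 ± 0.20 at MI 14 days (adjusted p = 0.401).

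The dimmer Cxcr6 probe read -1.86, -1.75, -0.66, -1.46 and -1.59 at MI 14 days, 1.43, 1.40, 1.21, 1.01 and 1.13 at MI 3 days, and -1.79, -1.61, -2.01 and -1.79 in sham hearts. It was 8.18-fold higher at MI 3 days than in sham hearts (3.03 ± 0.20 log2, adjusted p = 2.66e-08) and 6.49-fold lower at MI 14 days than at MI 3 days (-2.70 ± 0.19, adjusted p = 1.02e-07). At MI 14 days against sham it differed by 0.33 ± 0.20 (adjusted p = 0.222). RefSeq places Cxcr6 within the span of Fyco1, a gene of vesicle transport, whose probe changed in the other direction (-1.91 ± 0.14 at MI 3 days and -0.95 ± 0.14 at MI 14 days against sham, and 0.95 ± 0.13 between the times). The ratio of Cxcl16 to Cxcr6 changed by -2.01 ± 0.24 log2 at MI 3 days and by 0.75 ± 0.19 at MI 14 days against sham (adjusted exact permutation p = 0.0303 and 0.0476). The change between MI 14 days and MI 3 days was 2.76 ± 0.21 (adjusted exact permutation p = 0.0303). Ligand and receptor were thus in different balance at the 2 times.

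Cx3cl1, fractalkine, a transmembrane ligand of endothelium and neurons that captures monocytes, rose at both times. Its log2 levels were 1.87, 2.12, 2.77, 2.44 and 1.79 at MI 14 days, 2.24, 2.25, 2.0, 2.25 and 2.25 at MI 3 days, and 0.76, 0.87, 0.98 and 1.08 in sham hearts. No MI array reached the sham range, and the MI 14 days arrays spread around the narrow MI 3 days range. The increase over sham was 2.42-fold at MI 3 days (1.28 ± 0.17 log2, adjusted p = 1.47e-05) and 2.42-fold at MI 14 days (1.28 ± 0.17, adjusted p = 0.00014). The difference between the times was 0.00 ± 0.16 (adjusted p = 0.995). Relative to Cx3cl1, Cxcl16 changed by -0.35 ± 0.14 at MI 3 days and by -0.30 ± 0.09 at MI 14 days against sham (adjusted exact permutation p = 0.0476 and 0.0303).

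Cx3cr1, the fractalkine receptor of patrolling monocytes and resident macrophages, was the most variable receptor within groups. Its brighter probe read 0.35, 0.15, 2.10, 1.02 and 0.46 at MI 14 days, 1.21, 2.28, 1.86, 2.23 and 2.29 at MI 3 days, and -0.90, -0.93, 0.52 and 0.22 in sham hearts. All MI 3 days arrays were above all sham arrays, while MI 14 days overlapped both. It rose 4.74-fold at MI 3 days against sham (2.25 ± 0.41 log2, adjusted p = 0.000276) and was 2.23-fold lower at MI 14 days than at MI 3 days (-1.16 ± 0.39, adjusted p = 0.021). The difference of 1.09 ± 0.41 log2 at MI 14 days against sham did not pass the test (adjusted p = 0.0576). It passed without sham replicate 3 (1.35, adjusted p = 0.0321) and without MI 14 days replicate 2 (1.26, adjusted p = 0.0413). The fall between the times had adjusted p-values of 0.05 without MI 14 days replicate 1 (-1.04) and 0.053 without MI 14 days replicate 2 (-0.99).

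The dimmer Cx3cr1 probe read -1.50, -2.14, -0.06, -1.35 and -2.08 at MI 14 days, -0.68, 0.28, -0.45, 0.42 and 0.60 at MI 3 days, and -3.39, -2.93, -1.67 and -2.55 in sham hearts. It rose 6.35-fold at MI 3 days against sham (2.67 ± 0.44 log2, adjusted p = 0.000107) and was 2.75-fold lower at MI 14 days than at MI 3 days (-1.46 ± 0.41, adjusted p = 0.00834). It was 2.31-fold higher at MI 14 days than in sham hearts (1.21 ± 0.44, adjusted p = 0.0485). That last call was lost when any of 10 single arrays was left out, with changes of 0.87 without MI 14 days replicate 3 (adjusted p = 0.102) to 1.24 without sham replicate 4 (adjusted p = 0.0806). The ratio of Cx3cl1 to the brighter Cx3cr1 probe differed by -0.97 ± 0.38 at MI 3 days and by 0.19 ± 0.38 at MI 14 days against sham (adjusted exact permutation p = 0.0667 and 0.719). With the mean of both Cx3cr1 probes the MI 3 days difference was -1.18 and passed (adjusted exact permutation p = 0.0392), so this call depends on the probe used. With the brighter probe the ratio was higher by 1.16 ± 0.29 at MI 14 days than at MI 3 days (adjusted exact permutation p = 0.0303).

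Ccl11 had the largest fall among the members at MI 14 days against sham. Its log2 levels were -3.44, -4.02, -3.16, -4.26 and -3.54 at MI 14 days, -1.33, -1.10, 0.10, -1.40 and -1.73 at MI 3 days, and -1.81, -1.50, -2.16 and -1.86 in sham hearts. All MI 14 days arrays lay below all others, and MI 3 days overlapped sham. It was 3.60-fold lower at MI 14 days than in sham hearts (-1.85 ± 0.32 log2, adjusted p = 0.000888) and 6.02-fold lower than at MI 3 days (-2.59 ± 0.30, adjusted p = 8.96e-06). On MI 14 days arrays the probe was well above background in 3 of the 4 scanner files, so the fall ends near the detection limit. The difference at MI 3 days against sham was 0.74 ± 0.32 (adjusted p = 0.0549). Without MI 3 days replicate 3, the highest array at 0.10, it was 0.44 and did not pass. It passed without MI 3 days replicate 5 (0.90, adjusted p = 0.0257) or MI 14 days replicate 4 (0.74, adjusted p = 0.0499), and with quantile normalisation (0.78, adjusted p = 0.0421).

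**Figure D3:**
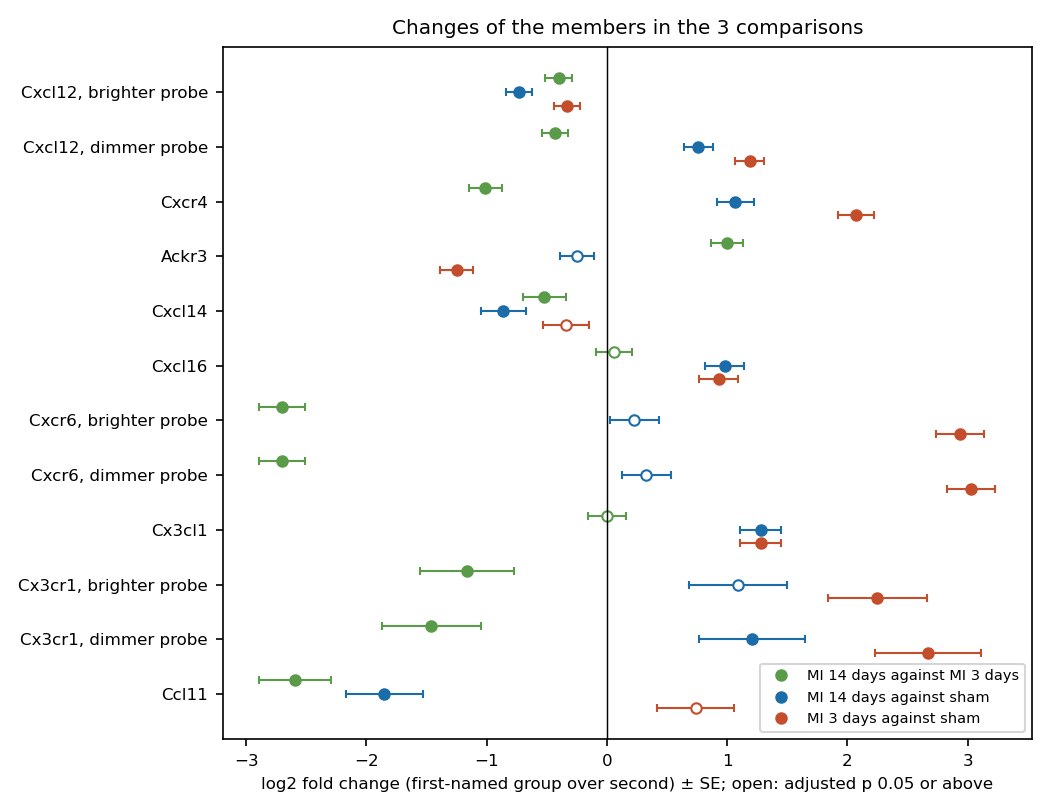
Log2 fold change ± SE from limma for each member probe at MI 14 days against MI 3 days, MI 14 days against sham and MI 3 days against sham, with filled points where the adjusted p was under 0.05. Cxcr6 reads 2.94 and 3.03 at MI 3 days against sham and -2.70 for both probes at MI 14 days against MI 3 days, while Cxcl16 and Cx3cl1 have points near 1 against sham at both times and near 0 between them.

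The array slide is given in the headers of 10 of the files. Slide 1 held MI 14 days replicate 1 and sham replicates 1 and 2. Slide 2 held MI 3 days replicate 4 and sham replicate 3. Slide 3 held MI 14 days replicates 3 to 5, MI 3 days replicate 5 and sham replicate 4. Within slides 2 and 3, the changes at MI 3 days against sham were 2.51 and 1.56 for Cxcr4 and -1.48 and -1.11 for Ackr3. They were 0.81 and 1.02 for Cxcl16, 2.86 and 2.67 for the brighter Cxcr6 probe, 1.27 and 1.17 for Cx3cl1, and 1.71 and 2.07 for the brighter Cx3cr1 probe. For the brighter Cxcl12 probe they were -0.24 and -0.37, for the dimmer one 1.21 and 1.31, for Cxcl14 -0.40 and -0.39, and for Ccl11 0.77 and 0.13. All of these had the sign found over all arrays.

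Within slides 1 and 3, the changes at MI 14 days against sham were -0.74 and -0.71 for the brighter Cxcl12 probe, 0.70 and 0.64 for the dimmer one and 1.05 and 0.76 for Cxcr4. They were -0.60 and -1.10 for Cxcl14, 0.85 and 1.03 for Cxcl16, 1.06 and 1.26 for Cx3cl1, and -1.78 and -1.79 for Ccl11. The brighter Cxcr6 probe, which did not pass the test, read -0.07 on slide 1 and 0.32 on slide 3. Between MI 14 days and MI 3 days only slide 3 held both groups, and the values there were -2.35 for the brighter Cxcr6 probe, -1.92 for Ccl11, -0.80 for Cxcr4 and 0.80 for Ackr3. With slide as a term on the 10 arrays, 4 members in place of 7 passed between the times. Those lost were the brighter probes of Cxcl12 (-0.39, adjusted p = 0.0776) and Cx3cr1 (-0.92, adjusted p = 0.151) and Cxcl14 (-0.60, adjusted p = 0.174). The dimmer Cx3cr1 probe lost its calls between the times (-1.37, adjusted p = 0.108) and at MI 14 days against sham (1.35, adjusted p = 0.0842). At MI 3 days against sham the brighter Cxcl12 probe lost its call (-0.32, adjusted p = 0.0934). The MI 3 days group has only 2 arrays in that fit.

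Markers of cell types were read on the same arrays, since in whole tissue fewer cells of a type and less RNA per cell cannot be told apart. The summed signal of 9 of 10 macrophage markers (linear scale, array's 75th percentile = 1) was 64.5 to 90.4 at MI 14 days, 112 to 177 at MI 3 days and 50.5 to 64.1 in sham hearts. That of 5 of 6 monocyte markers was 9.02 to 12.1 at MI 14 days, 40.4 to 63.2 at MI 3 days and 10.0 to 12.8 in sham hearts, and without F13a1, the brightest, 1.09 to 3.1, 19.4 to 41.7 and 0.543 to 0.925 in the same order. Of the 9 macrophage markers 8 rose at MI 3 days against sham, as did all 5 monocyte markers, and at MI 14 days against MI 3 days 8 and 5 fell. Beside these and the marker counts below, 29.8% of all genes were called higher and 40.5% lower at MI 3 days against sham. The shares were 15.9% and 24.2% at MI 14 days against sham, and 33.6% and 26.9% at MI 14 days against MI 3 days. Cd163 was the macrophage marker that was not above background on any MI 14 days array with scanner output. These sums moved in the same direction as Cxcr4 and Cx3cr1 at MI 3 days, and their part in those results was not tested.

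Of 12 T and NK cell markers 7 were tested, and their sum was 18.5 to 21.4 at MI 14 days, 24.8 to 34.4 at MI 3 days and 18.3 to 19.0 in sham hearts. Thy1 (1.73 ± 0.15), Cd3d (1.32 ± 0.31) and Lck (0.75 ± 0.25) rose at MI 3 days against sham, whereas Cd4 (-0.40 ± 0.14) and Nkg7 (-0.29 ± 0.09) fell. The NK cell receptors Klrb1c and Ncr1 were not above background on any array with scanner output. Cxcr6 thus rose beside T cell markers of mixed direction, and their part in the Cxcr6 result was not tested. Cd3d was above background on 1 of 4 sham arrays with scanner output, so its size of change rests on values near the floor. Without Thy1, the brightest of the list and also made by fibroblasts, the sum was 10.9 to 12.5 at MI 14 days, 9.95 to 12.9 at MI 3 days and 12.2 to 14.0 in sham hearts. Sums without the brightest marker were added after the values had been seen.

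Endothelial markers, all 10 tested, summed to 238 to 311 at MI 14 days, 214 to 255 at MI 3 days and 297 to 326 in sham hearts. Of these 2 rose, 3 fell and 5 did not pass at MI 3 days against sham. The sum lay lower at MI 3 days than in sham hearts, and 53.6% or more of it was Fabp4, a lipid-binding protein also made by fat cells, on every array. Without Fabp4 it was 104 to 121 at MI 14 days, 89.5 to 114 at MI 3 days and 104 to 118 in sham hearts, with overlap of all groups. Markers of pericytes and smooth muscle, all 8 tested, summed to 82.2 to 92.7 at MI 14 days, 85.0 to 118 at MI 3 days and 89.2 to 109 in sham hearts. Of these, 3 rose and 4 fell at MI 3 days against sham, and without Acta2, which activated fibroblasts also make, the sum was 59.3 to 64.4 at MI 14 days, 29.4 to 41.8 at MI 3 days and 55.1 to 69.9 in sham hearts. The part of vessel cells in the member results was not tested.

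Fibroblast markers, all 10 tested, summed to 1310 to 1790 at MI 14 days, 906 to 1240 at MI 3 days and 602 to 633 in sham hearts, with 9 of 10 up and none down at MI 14 days against sham. Without Dcn, the brightest, the sums were 796 to 1200, 705 to 1020 and 297 to 349 in the same order, and the MI groups overlapped. Cxcl14, Ccl11 and the brighter Cxcl12 probe, whose genes are all expressed by stromal cells, were at their lowest at MI 14 days, whereas the dimmer Cxcl12 probe was lowest in sham hearts. Cardiomyocyte markers, all 8 tested, summed to 3050 to 4590 at MI 14 days, 1850 to 2130 at MI 3 days and 3550 to 4240 in sham hearts, and all 8 fell at MI 3 days against sham. None of the 8 was missing from a group, and how far a shift in the make-up of the tissue enters the member results was not tested.

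Markers of eosinophils, the cells that Ccl11 attracts, were dim. The 4 of 6 that were tested summed to 0.512 to 0.674 at MI 14 days, 0.836 to 1.32 at MI 3 days and 0.456 to 0.62 in sham hearts. Siglecf was the one marker that rose at MI 3 days against sham, at least 9.72-fold against the sham arrays' detection floor (adjusted p = 4.67e-08), and it is also carried by neutrophils in injured tissue. Siglecf was bright enough to be tested only through the MI 3 days arrays, so its p-value is not independent support. Epx, the eosinophil peroxidase, was not above background on any array with scanner output, and Prg2 and Siglecf were not at MI 14 days or in sham hearts. Neutrophil markers (6 of 7 tested) summed to 214 to 238 at MI 14 days, 191 to 271 at MI 3 days and 208 to 228 in sham hearts, but 68.4% or more of the sum was Csf3r on every array. The other 5 markers summed to 1.89 to 9.15 at MI 14 days, 20.5 to 79.3 at MI 3 days and 2.46 to 6.65 in sham hearts, and all 5 rose at MI 3 days against sham, among them S100a8 by 15.7-fold and S100a9 by 11.3-fold, while Csf3r fell (-0.19 ± 0.08). B cell markers (5 of 5) summed to 4.98 to 5.48 at MI 14 days, 4.19 to 5.50 at MI 3 days and 4.62 to 6.65 in sham hearts, but 56.7% or more of the sum was Cd22 on every array. The other 4 summed to 0.681 to 2.37 at MI 14 days, 0.945 to 2.02 at MI 3 days and 0.594 to 0.881 in sham hearts. At MI 3 days against sham Cd79b rose (1.21 ± 0.34), Cd22 fell (-0.52 ± 0.15) and 3 did not pass.

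**Figure D4:**
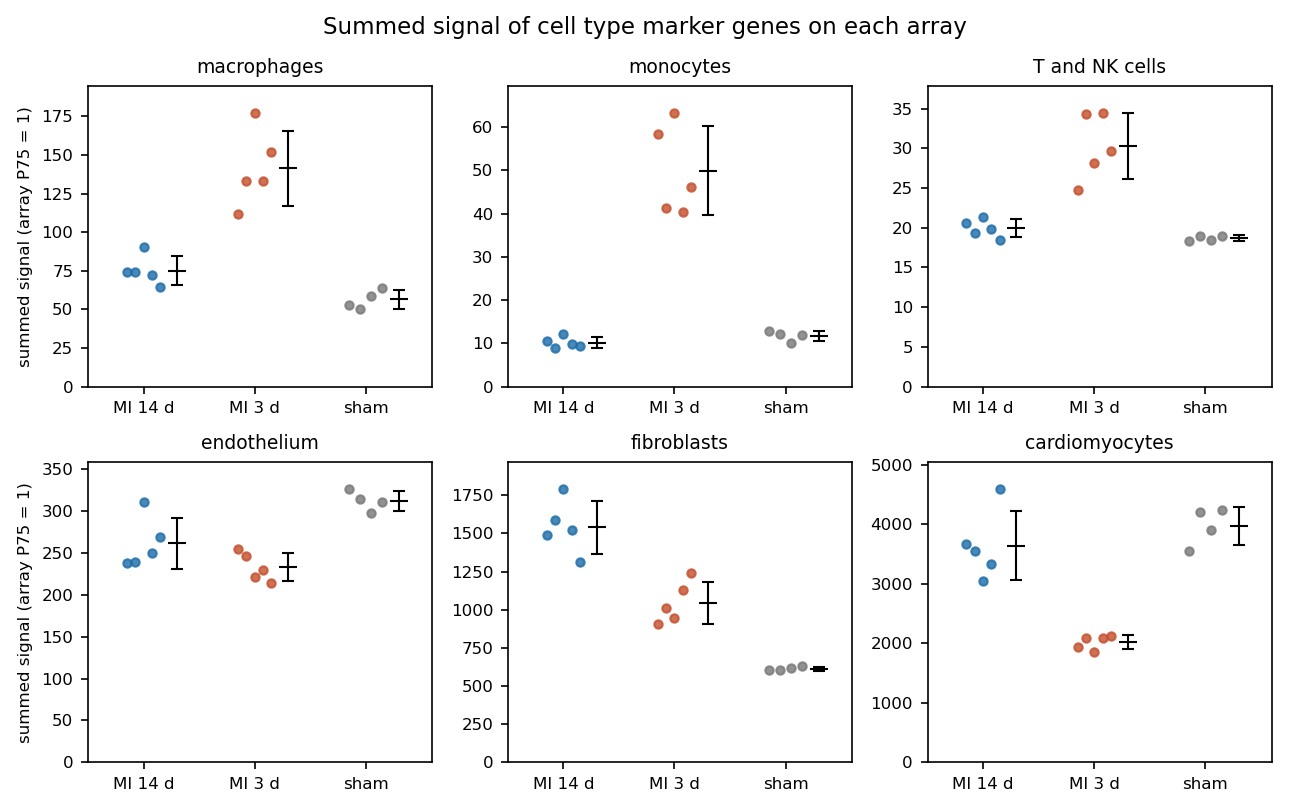
Summed signal of the tested marker genes of 6 cell types on each array (linear scale, array's 75th percentile = 1) at MI 14 days (5 arrays), MI 3 days (5 arrays) and in sham hearts (4 arrays), with 1 point per array and the mean ± SD. Monocyte sums lie at 40.4 to 63.2 at MI 3 days and at or below 12.8 elsewhere, while fibroblast sums are highest at MI 14 days, at 1310 to 1790. Without Dcn, the brightest fibroblast marker, the sums of the MI groups overlap (not plotted).

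Other genes of Cxcl12 and Cxcr4 signalling were read from a list, of which 26 were tested. At MI 3 days against sham 21 rose and 1 fell (median 0.93 log2) beside 70.2% of all genes called (29.8% higher and 40.5% lower). At MI 14 days 12 rose, none fell and 14 did not pass (median 0.30), beside 40.1% of all genes called. Between MI 14 days and MI 3 days 1 rose and 20 fell (median -0.61), beside 60.5%. The largest increases at MI 3 days were in Pik3r5, a regulatory subunit of the leukocyte PI3-kinase gamma (3.26 ± 0.24, adjusted p = 6.74e-08), and Vav1, a signalling protein of blood cells (3.22 ± 0.18, adjusted p = 6.1e-09). Vegfa, the vessel growth factor, fell at MI 3 days (-0.71 ± 0.18, adjusted p = 0.00327) and was higher by 0.62 ± 0.17 at MI 14 days than at MI 3 days (adjusted p = 0.00696). Cxcr3, a receptor for interferon-induced chemokines, was up by 1.81 ± 0.39 at MI 14 days against sham (adjusted p = 0.0032) and Pik3r5 by 1.23 ± 0.24 (adjusted p = 0.00184). Cxcr3 was above background on 2 of 4 sham arrays. Vav1 (-2.19 ± 0.17) and Rac2, the blood-cell Rac GTPase (-2.12 ± 0.16), fell most between MI 14 days and MI 3 days. Pik3r5, Vav1 and Rac2 are expressed chiefly in blood cells. The macrophage and monocyte sums above were likewise higher at MI 3 days than in sham hearts and lower at MI 14 days than at MI 3 days, while at MI 14 days the monocyte sum overlapped sham with F13a1 and did not without it, and their part in these results was not tested.

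Among 11 tested proteases and regulators that release or trim these ligands, 6 rose and 4 fell at MI 3 days against sham (median 0.39, with 70.2% of all genes called). At MI 14 days 7 rose and none fell (median 0.42, with 40.1% of all genes called), and 4 rose and 4 fell between the times (median 0.01, with 60.5% called). Cathepsin S (Ctss), which cuts Cx3cl1, rose by 3.2 ± 0.19 at MI 3 days (adjusted p = 1.44e-08) and by 1.17 ± 0.19 at MI 14 days (adjusted p = 0.000699). Mmp2, a gelatinase that trims Cxcl12 protein, changed by -0.65 ± 0.17 at MI 3 days (adjusted p = 0.00454) and by 2.02 ± 0.17 at MI 14 days (adjusted p = 6.29e-06). Its relation to Cxcl12 was not tested. Of the 2 shedding metalloproteases, Adam10 rose at MI 3 days (1.0 ± 0.13, adjusted p = 1.07e-05) and Adam17 fell (-0.38 ± 0.10, adjusted p = 0.00403). The tetraspanins that steer Adam10 split at MI 3 days, with Tspan14 up by 1.22 ± 0.10 and Tspan15 down at -0.83 ± 0.22. Between MI 14 days and MI 3 days Timp3, an inhibitor of Adam17, was up by 0.99 ± 0.12 and Mmp2 by 2.66 ± 0.16, with Ctss at -2.03 ± 0.18 and Tspan14 at -0.80 ± 0.09.

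Of 12 tested genes of the eotaxin axis, 8 rose and 1 fell at MI 3 days against sham (median 0.41), and none rose and 8 fell between MI 14 days and MI 3 days (median -0.51). In either direction both totals are near the 70.2% and 60.5% of all genes called in these comparisons. By direction, 29.8% of all genes were higher at MI 3 days against sham and 26.9% were lower at MI 14 days against MI 3 days. At MI 14 days 2 rose and none fell (median 0.00), beside 40.1% of all genes. Ccl7, a monocyte chemokine of the same gene cluster as Ccl11, rose by 4.63 ± 0.28 at MI 3 days (adjusted p = 1.26e-08), and MI 14 days differed from MI 3 days by -4.68 ± 0.26. Il4ra, a chain of the interleukin 4 receptor, rose by 2.72 ± 0.18 at MI 3 days and changed by -2.50 ± 0.17 between MI 14 days and MI 3 days. Il1rl1, the receptor of interleukin 33, fell at MI 3 days (-0.55 ± 0.18, adjusted p = 0.0136). Ccl8 (1.69 ± 0.29) and Il33 (1.56 ± 0.19) were up at MI 14 days against sham, where Ccl11 was down. Ccr3, the receptor of Ccl11, differed from sham by 0.02 ± 0.20 at MI 3 days and by -0.15 ± 0.20 at MI 14 days (adjusted p = 0.944 and 0.595), and Il4, Il5 and Il13 were too dim to test.

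Other homeostatic chemokines and their receptors, 14 tested of 21, showed no common direction at MI 3 days against sham, with 5 up and 5 down (median -0.05), a share near the 70.2% of all genes called. There were 3 up and 2 down at MI 14 days (median 0.34), and 5 up and 2 down between the times (median 0.22), beside 40.1% and 60.5% of all genes. Ccl17 rose by 1.83 ± 0.39 at MI 3 days and Cxcr5 at least 1.40-fold (adjusted p = 0.0211), while Ccl27a changed by -1.49 ± 0.10 and Ccr10, its receptor, was at least 1.85-fold lower (adjusted p = 0.0165). Such bounds set the bright group against the detection floor of the dim one, and where MI 3 days is dim that floor rests on 2 of its arrays. Cxcl13, the B cell follicle chemokine, was at least 6.85-fold higher at MI 14 days than in sham hearts (adjusted p = 0.00314). Cxcr5, Ccr10 and Cxcl13 were bright enough to be tested only through the group where they were high, so their p-values are not independent support. Ackr1 was up by 1.02 ± 0.33 at MI 14 days against sham, Ccrl2 changed by -0.78 ± 0.12 and Ccl27a by -0.63 ± 0.10. Between MI 14 days and MI 3 days Cxcl13 was up by 2.92 ± 0.80, with overlapping arrays. It was above background on 1 of 2 MI 3 days arrays with scanner output. In the same comparison Ackr4, which clears Ccl19 and Ccl25, was up by 1.58 ± 0.25, while Ccr7 (-1.19 ± 0.27) and Ccl17 (-0.99 ± 0.37) fell.

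The 5 other atypical or scavenging receptors were read beside Ackr3. Of them 1 rose at MI 3 days against sham, Ackr1 (1.18 ± 0.33), and 3 fell, namely Pitpnm3 (-2.66 ± 0.22), Ccrl2 (-0.98 ± 0.12) and Ackr4 (-0.91 ± 0.27). Against sham at MI 14 days 2 rose, Ackr1 and Ackr2 (0.87 ± 0.12), and 2 fell, Ccrl2 and Pitpnm3 (-0.62 ± 0.22). Between MI 14 days and MI 3 days 3 rose, Pitpnm3 (2.04 ± 0.21), Ackr4 and Ackr2 (0.97 ± 0.11), as Ackr3 did, and none fell. Pitpnm3 was above background on 1 of 2 MI 3 days arrays with scanner output. The size of its changes that involve MI 3 days thus rests on values near the floor. The list medians were -0.91, 0.67 and 0.97. In either direction 70.2%, 40.1% and 60.5% of all genes were called in the same comparisons, and the counts at MI 3 days and between the times are near these shares.

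For Cxcl12, Cxcl14, Cx3cl1 and Ccl11 the genes of most similar pattern were found by the root mean square difference between levels scaled to their own mean and SD over the 14 arrays, among 14861 other genes, where 0 is the same pattern. Cx3cl1 had the closest neighbours, Emp1 (0.14), Mxra7 (0.15) and Npdc1 (0.16). Emp1, a membrane protein, averaged 5.90 ± 0.45 at MI 14 days, 5.92 ± 0.15 at MI 3 days and 4.12 ± 0.10 in sham hearts (log2 level, SD). Cx3cl1 averaged 2.20 ± 0.41, 2.20 ± 0.11 and 0.92 ± 0.14 in the same order of groups. For Ccl11 they were Sfxn5 (0.32), Slc66a2 (0.33) and Ddx3x (0.34), of which Sfxn5 averaged -1.46 ± 0.07, -0.48 ± 0.22 and -0.91 ± 0.04 in that order of groups. The brighter Cxcl12 probe was closest to Nsmce1 (0.42), Dhps (0.42) and Hmox2 (0.44), and Cxcl14 to Ehd1 (0.48), Fastkd3 (0.49) and Rbks (0.50), at larger distances.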

How the data were processed

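The authors deposited 1 linear Cy3 intensity per probe and array, and 10 arrays also have scanner output, with processed signals that are background-subtracted per the file headers. On those 10 arrays all 55050 probes with a single spot had 1 intensity in both the deposited table and the scanner files, within 1e-05 of the value. The submitters' processing notes name limma without a role. Log2 was taken here of the deposited intensities, and arrays were put on 1 scale by taking off the 75th percentile of each.

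Probes were named by matching their accession to RefSeq genes (27144 of 55482 probes). Tests were limited to probes well above background on all scanner arrays of some group, which kept 32249 probes and left out 23233 as dim. A further 199 probes have no row in the table. A single limma fit (version 3.58.1, R 4.3.3, lmFit with eBayes, two-sided) held all 3 groups. P-values were adjusted by Benjamini-Hochberg over the 32249 probes, with a threshold of 0.05. The fit was tested on simulated data. Where a gene had several probes, its brightest by mean level was used in counts. Pairs of members were compared by exact permutation tests over arrays. The genes, gene lists and 10 marker lists were chosen with earlier results of these data known. The text names every member probe, up to 2 genes that rose and 2 that fell most in each list and comparison, list genes that a member result turns on, and the 3 genes most similar in pattern to 4 of the ligands. Adam10, Adam17, Ccr3 and the cell type markers named singly were added for their role and after their values were seen.

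Alternatives were other scalings, filters, background correction, slide or replicate number as a block, leaving out arrays, and the mean of a gene's probes. The background correction (normexp, offset 50) used the median spot signal, as the files used here hold no mean. Precision is set by how many arrays a group has. The labels do not tie arrays to single mice, so p-values measure the spread between these samples.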

Additional observations from a re-analysis of the deposited data

Results flagged for a closer look

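In groups of 4 or 5 arrays, 6 of 57 sets of values had 1 array far from the rest, where chance gives about 1 in 20. Cxcr4 was lowest at -0.82 in MI 3 days replicate 5, Cxcl16 was lowest at 0.67 in MI 3 days replicate 1, and Cx3cl1 was lowest at 2.0 in MI 3 days replicate 3, beside 2.24 to 2.25 in the other 4 arrays. Among log2 ratios, Cxcr4 over Ackr3 was highest at -4.09 in MI 14 days replicate 3. MI 3 days replicate 1 was highest for Cx3cl1 over Cx3cr1, at 1.03, and lowest for Cxcl16 over Cx3cl1, at -1.58. Without MI 3 days replicate 1 the Cxcl16 increase at MI 3 days against sham was 1.03.

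The change at MI 14 days differed from the change at MI 3 days, both against sham, in 7 genes. Since both share the sham arrays, this difference equals that between the MI groups. It was -0.40 and -0.43 log2 for the 2 Cxcl12 probes, -1.01 for Cxcr4, 1.0 for Ackr3, -0.52 for Cxcl14, -2.70 for each Cxcr6 probe, -1.16 and -1.46 for the 2 Cx3cr1 probes, and -2.59 for Ccl11 (adjusted p under the threshold in limma for each). Cxcl12's brighter probe moved further below sham at MI 14 days than at MI 3 days, and Ackr3 was the one among these 7 with a positive difference. The differences of Cxcl14 and of the brighter Cx3cr1 probe were lost with some arrays left out, as given above.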

How the results depend on the processing

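The member calls were compared over scalings, filters, array subsets, blocks and single arrays left out. Members past the threshold were 6 to 8 at MI 3 days against sham, 6 to 7 at MI 14 days against sham and 6 to 7 between MI 14 days and MI 3 days with any 1 array left out, against 7, 6 and 7 with all arrays. The replicate block gave 8, 7 and 7, and the numbers do not pair the samples (correlations of same-numbered deviations -0.14 to 0.22). With it Ccl11 passed at MI 3 days (0.80, adjusted p = 0.0486), and at MI 14 days the brighter Cx3cr1 probe passed (1.09, adjusted p = 0.0266) and the dimmer one did not (1.22, adjusted p = 0.0515). Without scaling, 3 members passed at MI 14 days against sham, the brighter Cxcl12 probe (-0.81), Cxcl14 (-0.93) and Cxcl16 (0.90) being lost at changes of similar size, and with slide as a block 4 between the times. Ackr3 passed at MI 14 days against sham with normexp (-0.41, adjusted p = 0.035), and Cxcl14 at MI 3 days when only the 2 groups were fitted (-0.34, adjusted p = 0.0352).

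Without scaling, the sign turned for the brighter Cxcl12 probe (0.08) and Cxcl14 (0.07) at MI 3 days against sham, and for Cxcl16 (-0.43) and Cx3cl1 (-0.49) between the times. That setting moves the median of all genes to 0.26, -0.16 and -0.41 in the 3 comparisons. With the mean of probes, Cxcl12 was 0.43 at MI 3 days and 0.01 at MI 14 days, and Cxcl12 over Ackr3 0.26 at MI 14 days, against sham. On the 10 scanner arrays between the times, Cxcl16 was -0.08 and Cx3cl1 -0.03, and with normexp -0.18 and -0.04, Cxcl12 over Cxcr4 -0.02, Cxcl12 over Cxcl14 -0.03 and Cxcl16 over Cx3cl1 -0.14. Within slide 1 the Cxcr6 probes read -0.07 and -0.16 at MI 14 days against sham. With single arrays left out, between the times Cxcl16 ranged from -0.05 to 0.14, Cx3cl1 from -0.14 to 0.10, Cxcl12 over Cxcl14 from -0.01 to 0.21 and Cxcl16 over Cx3cl1 from -0.06 to 0.11. At MI 14 days against sham Cxcl12 over Cxcl14 ranged from -0.01 to 0.22 and Cx3cl1 over Cx3cr1 from -0.05 to 0.39, and at MI 3 days Cxcl12 over Cxcl14 from -0.13 to 0.11. Apart from the brighter Cxcl12 probe and Cxcl12 over Cxcr4, these results had not passed the test with all arrays.

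Pair ratios past the threshold numbered 0 to 5 at MI 3 days against sham, 0 to 4 at MI 14 days against sham and 0 to 5 between the times with 1 array left out, and 0, 0 and 0 with normexp on 10 arrays, where 2 arrays against 4 can give no p below 0.133. Single-member values within slides have no test or count. Of all genes past the threshold at MI 14 days against sham, 39.6% were higher, against 52.6% with the percentile over tested probes and 66.2% without scaling. Without scaling that share was 73% at MI 3 days against sham (42.4% otherwise) and 10.3% between the times (55.6% otherwise). Signal over background limits Ccl11 at MI 14 days. The cause of these shifts was not tested.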
